A study of Mus musculus with 24 samples.

Results

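The genes described here are 10 genes of the maturing surface epithelium of the mouse: Krtdap, Dmkn, Sprr1a, Sprr3, Rptn, Csta1, Dsg1a, Dsc1, Them5 and Sdr16c6. They were taken from 18193 genes that had a single symbol on an Affymetrix mouse array, of which 12811 were bright enough to be tested, and all 10 were among the genes tested. They were selected on the mutant minus control differences of these same arrays: earlier results had named Krtdap, Dmkn and Them5 among the largest differences between mutant and control proximal maxilla, and Sprr3 among those of the distal mandible. In these comparisons the values below are therefore a description, with no test.

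The arrays hold RNA from embryonic jaws of the strain C57B6, taken at embryonic day 14.5. Mutants came from a cross of Wnt1-Cre;Tgfbr2 fl/+ with Tgfbr2 fl/fl mice. They were picked out by their palate cleft and skull vault defect, and controls were their littermates, whose own alleles the labels do not give. Wnt1-Cre removes the floxed sequence of Tgfbr2, the type II receptor for TGF-beta, in neural crest cells, so the surface epithelium, which has another origin, is not the tissue in which the deletion was driven. The maxilla (upper jaw) and mandible (lower jaw) were each cut into a distal and a proximal end, which gave 8 groups of 3 arrays: mutant and control distal maxilla, proximal maxilla, distal mandible and proximal mandible.

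Stratified epithelium renews from a basal layer, whose cells carry the keratins Krt5 and Krt14. As cells leave that layer they switch keratins, strengthen their desmosomes, the junctions that rivet neighbouring cells together, and later crosslink small proline-rich and other proteins beneath the membrane into the cornified envelope. Skin, the lining of the mouth and the whisker pads follow versions of this programme. In the fetal mouse the skin barrier is completed only shortly before birth, so that these arrays sample an early step. Dsg1a and Dsc1 encode a desmoglein and a desmocollin, the adhesion molecules of desmosomes in upper layers. Sprr1a and Sprr3 are small proline-rich envelope precursors and Rptn is the envelope protein repetin. Csta1 belongs to the stefin A family of cysteine protease inhibitors. Krtdap and Dmkn encode secreted proteins of differentiating keratinocytes. Them5 encodes an acyl-CoA thioesterase and Sdr16c6 a short-chain dehydrogenase of retinoid metabolism, so neither is a structural part of an envelope or a desmosome.

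Several members are neighbours in the genome. Dmkn lies directly beside Krtdap on chromosome 7, and Sprr3 directly beside Sprr1a on chromosome 3. Rptn and Them5 lie farther along the same chromosome, with 32 protein-coding genes between Sprr1a and Rptn. Promoter windows from 250 bases before to 50 bases after the start of the transcript were taken from RefSeq (assembly GRCm38.p6), which gave 10 windows for 8 of the members. Those of the neighbouring pairs are shown because Krtdap and Dmkn moved alike in what follows while Sprr1a and Sprr3 did not, and that of Rptn because it is the member most like Sprr3. Capitals mark the AP-1 motif TGANTCA and the TATA box TATAAA, searched on both strands, and each window is written 5′ to 3′ along the gene. The window of Krtdap is chr7:30787655-30787954 (plus strand), that of Dmkn chr7:30763506-30763805 (plus), that of Sprr1a chr3:92485832-92486131 (minus), that of Sprr3 chr3:92458671-92458970 (minus) and that of Rptn chr3:93393449-93393748 (plus).
Krtdap: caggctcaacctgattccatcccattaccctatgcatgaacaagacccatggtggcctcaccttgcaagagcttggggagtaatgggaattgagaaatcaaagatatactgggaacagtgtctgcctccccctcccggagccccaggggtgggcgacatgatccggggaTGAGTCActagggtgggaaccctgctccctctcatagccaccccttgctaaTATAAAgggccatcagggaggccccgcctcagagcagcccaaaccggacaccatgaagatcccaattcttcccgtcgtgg
Dmkn: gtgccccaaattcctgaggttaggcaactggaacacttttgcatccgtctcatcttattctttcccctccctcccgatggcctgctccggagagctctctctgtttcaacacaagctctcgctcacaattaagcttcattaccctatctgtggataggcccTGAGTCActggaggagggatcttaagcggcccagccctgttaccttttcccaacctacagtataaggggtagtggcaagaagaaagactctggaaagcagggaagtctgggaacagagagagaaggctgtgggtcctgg
Sprr1a: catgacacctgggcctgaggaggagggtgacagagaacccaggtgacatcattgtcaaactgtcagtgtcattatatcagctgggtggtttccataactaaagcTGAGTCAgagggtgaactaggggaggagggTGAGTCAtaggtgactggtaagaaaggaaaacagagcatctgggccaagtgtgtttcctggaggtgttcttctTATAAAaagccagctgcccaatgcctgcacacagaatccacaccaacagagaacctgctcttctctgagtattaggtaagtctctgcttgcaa
Sprr3: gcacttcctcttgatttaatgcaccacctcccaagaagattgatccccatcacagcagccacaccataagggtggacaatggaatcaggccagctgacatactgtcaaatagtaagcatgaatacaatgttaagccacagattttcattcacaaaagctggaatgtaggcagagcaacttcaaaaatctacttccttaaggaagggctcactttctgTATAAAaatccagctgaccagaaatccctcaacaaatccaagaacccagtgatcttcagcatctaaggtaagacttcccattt
Rptn: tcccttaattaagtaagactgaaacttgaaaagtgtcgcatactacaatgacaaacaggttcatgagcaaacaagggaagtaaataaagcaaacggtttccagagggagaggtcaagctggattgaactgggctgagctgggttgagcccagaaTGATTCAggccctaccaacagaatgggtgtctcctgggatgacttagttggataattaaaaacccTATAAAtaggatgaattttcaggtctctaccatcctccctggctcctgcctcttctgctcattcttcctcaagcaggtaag

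The letters of the AP-1 motif were present in 6 of the 10 windows, those of 4 of 8 genes, and in 7.81% of all 32851 windows in the table. Of the 6 windows, 3 belong to Dmkn, whose windows 1 and 2 overlap and hold the same site. The share of all windows is per window, and none per gene was taken. The match began 81 bases before the start in Krtdap, 89 in Dmkn and 96 in Rptn, and Sprr1a had 2 matches, the first of them 146 bases before its start. TATAAA was found in the windows of Krtdap, Sprr1a, Sprr3 and Rptn, 4 of 10 windows against 13.6% of all. No motif in capitals overlapped another. The letters of a C/EBP motif, TTGCNNAA, were found in the 3 windows of Dmkn (10.8% of all windows), those of an AP-2 motif, GCCNNNGGC, in the window of Csta1 (16.6%), and those of a Grainyhead motif, AACCGGTT, in no member's window (0.146%). The overlapping windows of Dmkn share their C/EBP site too. These are matches of letters only.

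The labelled regions were checked first. Hand2, a transcription factor of the lower jaw, lay between 12.19 and 12.98 on the distal mandible arrays and between 5.27 and 7.39 on the maxilla arrays, on the log2 scale of all values given here. Tgfbr2 was measured by a bright probe set that averaged 12.40 ± 0.21 in mutant and 11.61 ± 0.09 in control proximal maxilla (SD, n = 3 each). No source used here places this probe set relative to the deleted sequence, so it does not check the genotype. Among the maxilla arrays, mutant distal 1 and mutant proximal 1 and 2 stood apart. Their mean over 11 olfactory and nasal genes, each centred over arrays, was −0.58, −1.47 and −1.22. It was 0.50 to 2.36 on the control distal maxilla arrays, 2.21 on mutant proximal 3 and 2.72 to 2.87 on the control proximal arrays. The same 3 arrays had higher skeletal muscle genes, at 1.23, 2.06 and 1.02 over 21 genes. The control distal maxilla arrays had −2.49 to −1.50 and the control proximal arrays −2.01 to −0.81. Control proximal maxilla 3 stood apart in the members themselves. The maxilla comparisons of the members are given with and without them. In proximal maxilla so are counts of envelope, desmosomal, basal and suprabasal keratin genes, while other lists are counted with all arrays.

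Across the 8 groups most members were brighter in the 2 distal ends and in the mutant proximal maxilla than in the proximal mandible of either genotype. Sprr3 and Rptn were not: they averaged 6.27 and 4.15 in mutant proximal maxilla, close to their means in proximal mandible. In mutants Krtdap averaged 12.03 ± 0.48 at the proximal and 11.91 ± 0.69 at the distal end of the maxilla, 11.40 ± 0.76 at the distal end of the mandible and 7.91 ± 0.30 at its proximal end (SD, n = 3). In controls it averaged 11.59 ± 0.53 in distal maxilla, 10.55 ± 1.29 in distal mandible, 8.17 ± 0.59 in proximal mandible and 8.17 ± 2.09 in proximal maxilla. The 5 highest group means of Krtdap lay within about the spread of their neighbours, and a step of more than 2 log2 units separated them from the 3 lowest. Krtdap and Dmkn exceeded their array's own median on 23 of 24 arrays, Dsg1a on 21, Sprr1a on 17, Them5 on 16, Sdr16c6 on 13, Csta1 and Dsc1 on 12, Sprr3 on 9 and Rptn on 5. Values near 4 to 6 are close to the background of the array, and folds that start there understate the difference. Because whole pieces were measured, fewer epithelial cells and less RNA per cell cannot be told apart.

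**Figure D1:**
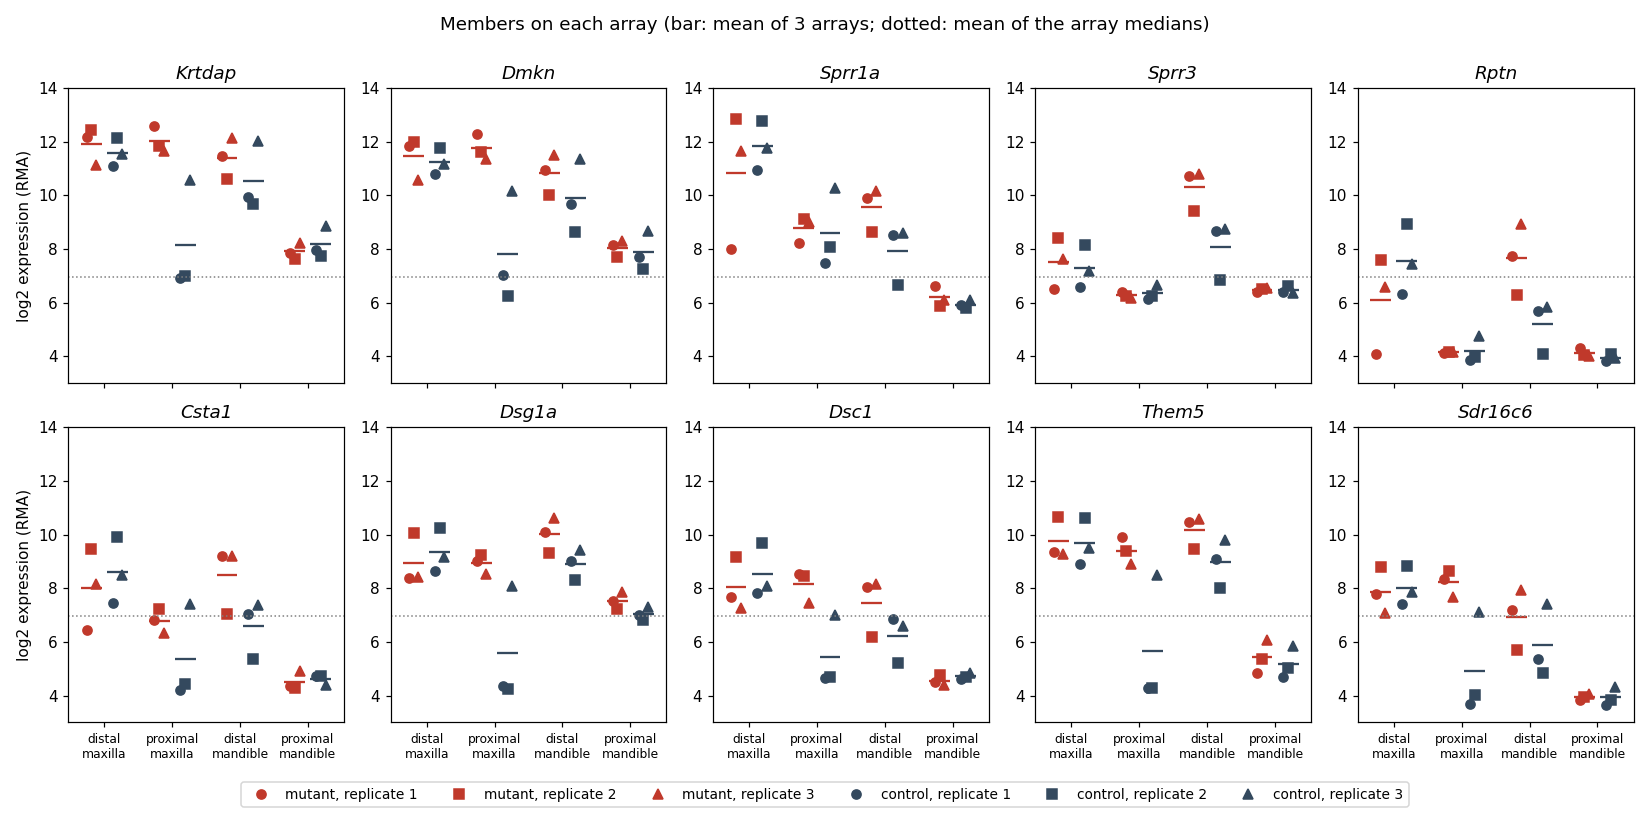
Log2 expression of the 10 genes on every array, by region, with mutants in red and controls in dark blue, the marker shape giving the replicate number, bars the mean of 3 arrays and the dotted line the mean of the array medians. Control proximal maxilla 1 and 2 lie far below replicate 3 in Krtdap, Dmkn, Csta1, Dsg1a, Dsc1, Them5 and Sdr16c6, and Sprr3 is bright chiefly in the distal mandible.

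In the proximal maxilla, 6 members had every mutant array above every control array: Krtdap, Dmkn, Dsg1a, Dsc1, Them5 and Sdr16c6. The envelope precursors Sprr1a, Sprr3 and Rptn showed little difference in mean, with Sprr3 and Rptn below the array median on every array of both genotypes. Csta1 lay between these sets. The secreted keratinocyte gene Krtdap had 12.58, 11.85 and 11.66 on the mutant arrays, against 6.93, 7.0 and 10.58 on the control arrays. Control 3 was thus nearer to the mutants than to its own group, and the difference was 3.86 ± 0.77 (standard error of the limma fit, n = 3 each), or 14.5-fold. Its neighbour Dmkn had 12.27, 11.62 and 11.37 in mutants, against 7.05, 6.26 and 10.16 in controls, a difference of 3.93 ± 0.79. The order of the 6 arrays was nearly that of Krtdap.

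The desmosomal genes showed the same split among the controls. Dsg1a had 9.03, 9.23 and 8.51 in mutant proximal maxilla, against 4.37, 4.25 and 8.08 in control proximal maxilla, a difference of 3.35 ± 0.74. Dsc1 had 8.52, 8.47 and 7.45 in mutants, against 4.65, 4.70 and 7.0 in controls, a difference of 2.70 ± 0.68. Controls 1 and 2 were at the background for both genes, and the lowest mutant array was above control 3 by little in either. The thioesterase gene Them5 had 9.90, 9.38 and 8.89 in mutants, against 4.26, 4.28 and 8.49 in controls (3.71 ± 0.83). Sdr16c6 had 8.34, 8.65 and 7.66 in mutants, against 3.67, 4.02 and 7.11 in controls (3.28 ± 0.79). These are the same 2 controls at background again. Csta1, the protease inhibitor gene, had 6.82, 7.23 and 6.32 in mutants and 4.21, 4.43 and 7.41 in controls, so that control 3 was above all mutants (1.44 ± 0.86).

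Sprr1a had 8.23, 9.12 and 9.02 in mutant proximal maxilla, against 7.48, 8.07 and 10.29 in control proximal maxilla. Its groups overlapped and differed by 0.17 ± 0.92, a standard error too wide to call them level. Sprr3 differed by −0.08 ± 0.50 and Rptn by −0.04 ± 0.76, with Rptn at 4.13 to 4.17 on the mutant arrays and 3.87 to 4.75 on the controls, near background in either group. The median difference of the 10 members was 2.99, against 0.01 over all genes tested. The 6 non-overlapping members passed an adjusted p of 0.05, where 23.3% of all genes did (12.2% higher in mutants) and 19.5% had every mutant array above every control array. Members had been named from this comparison, so nothing is read from that count.

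The size of the difference varied with the arrays set side by side. Leaving out single replicates left 6 to 7 members past the threshold, with medians of 2.47 to 3.92. Without control 3, 7 members passed, Csta1 being added, and the median difference was 3.92. Without mutants 1 and 2 of the proximal and mutant 1 of the distal maxilla, the arrays low in nasal genes, the median was 2.36 and none passed, with 1 mutant array left that was assumed to vary like the other groups. Without control 3 as well, Krtdap stood at 4.70 ± 0.84, Dsg1a at 4.20 ± 0.69 and Them5 at 4.62 ± 0.81, and 4 members passed. Mutant 3, with nasal genes at 2.21, had Krtdap at 11.66 and Dsg1a at 8.51, above each control, as were its Dmkn, Dsc1, Them5 and Sdr16c6. Its Csta1 at 6.32, Sprr1a at 9.02, Sprr3 at 6.16 and Rptn at 4.15 were below control 3. Basal keratinocyte genes moved with the members: the mean over 11 of them, centred over arrays, was −0.19 to 0.16 in mutant and −1.61 to −0.53 in control proximal maxilla. With that mean as a covariate, the median difference of the members was 0.16 and none passed, where 0.336% of all genes did. The basal mean did not overlap between these groups. Here and below, a covariate that differs between the groups compared removes part of their difference by construction. Skeletal muscle, dermal fibroblast and macrophage genes were also higher in mutants and chondrocyte genes lower. Past the threshold were 14 of 21, 7 of 10, 8 of 10 and 11 of 16, where 23.3% of all genes were. Chondrocyte means were −2.58, −2.38 and 0.65 on the mutant arrays, in rising order, and 0.27 to 1.60 on the controls. With the nasal and muscle means as covariates, none of the members passed, their median was 2.03, and 0.851% of all genes passed. The part of fibroblast, macrophage and chondrocyte genes in the result was not tested.

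In the distal mandible all 10 members were higher in mutants on average, with a median difference of 1.23, against 0.03 over all genes. Here Rptn and Sprr3 showed the largest differences of the 10. Sprr3 had 10.74, 9.43 and 10.80 in mutant distal mandible, against 8.66, 6.85 and 8.74 in control distal mandible. Every mutant array was above every control array, and the difference was 2.24 ± 0.50, or 4.73-fold. Rptn had 7.74, 6.29 and 8.92 in mutants, against 5.69, 4.10 and 5.84 in controls (2.44 ± 0.76). It exceeded its array's median on 2 mutant arrays and on none of the controls. The other 2 probe sets for Rptn stayed between 4.40 and 5.11 on all 24 arrays, so the value rests on 1 probe set. Sprr1a had 9.89, 8.62 and 10.18 in mutants, against 8.52, 6.65 and 8.59 in controls (1.64 ± 0.92). Its groups did not overlap either, though mutant 2 cleared control 3 by little.

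Among the other members the groups overlapped. Csta1 had 9.20, 7.06 and 9.19 in mutant distal mandible and 7.06, 5.35 and 7.37 in control distal mandible, a difference of 1.89 ± 0.86. Dsg1a had 10.11, 9.31 and 10.60 in mutants and 9.02, 8.30 and 9.41 in controls (1.10 ± 0.74). In each of these the array numbered 2 was the lowest of its genotype. The differences were 1.24 ± 0.68 for Dsc1, 1.21 ± 0.83 for Them5, 1.07 ± 0.79 for Sdr16c6, 0.93 ± 0.79 for Dmkn and 0.85 ± 0.77 for Krtdap. Sprr3 alone of the 10 passed the threshold, where 0.742% of all genes did (0.273% higher in mutants), and 3 members did not overlap, where 13% of all genes had every mutant above every control. Earlier results had named Sprr3 in this comparison, so nothing is read from that count.

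The replicate numbers ordered the distal mandible arrays alike in both genotypes. Taken by number, the mutant was above the control in 3 of 3 pairs for each of the 10 members. The pair differences were 2.08, 2.58 and 2.06 for Sprr3, 2.05, 2.19 and 3.08 for Rptn and 2.14, 1.71 and 1.82 for Csta1. Dsg1a gave 1.08, 1.01 and 1.19, the narrowest spread of any member here (SD 0.0879). Krtdap gave 1.51, 0.94 and 0.10, so its pair numbered 3 was level. With the number as a block within the region, 2 members passed, Rptn being added. The call for Sprr3 was absent without control 1, control 2, mutant 1 or mutant 3, and it stood at 1.62 without control 2. Basal keratinocyte genes were 0.65 to 1.01 in mutants and 0.13 to 0.89 in controls, and with their mean as a covariate the members' median was 0.30 and none passed. Other cell types also moved: the mean over 21 skeletal muscle genes was −0.60 to 0.29 in mutants and 0.78 to 1.64 in controls, with Ckm alone passing as lower, and chondrocyte genes had a median difference of −1.89, with 0 of 16 passing by limma and 6 at an unadjusted p below 0.05. With the nasal and muscle means as covariates the members' median was 1.32 and none passed. The part of chondrocyte genes was not tested.

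In the distal maxilla no member passed the test. By limma 0 of 10 passed in either direction, 0 had an unadjusted p below 0.05, and the share of all genes called was 0.195%. Krtdap had 12.17, 12.43 and 11.13 in mutant distal maxilla, against 11.10, 12.15 and 11.53 in control distal maxilla, a difference of 0.31 ± 0.77 (adjusted p = 0.948). Sprr1a had 8.02, 12.85 and 11.64 in mutants and 10.94, 12.77 and 11.77 in controls (−0.99 ± 0.92, adjusted p = 0.819). Rptn had 4.07, 7.59 and 6.58 in mutants and 6.32, 8.95 and 7.43 in controls (−1.49 ± 0.76, adjusted p = 0.598). Mutant 1 was the low array for these envelope precursors, and for Csta1 at 6.45, while its Krtdap was exceeded by mutant 2 alone. Mutant 1 is also the array low in nasal genes. Without it 0 of 10 passed by limma, as before, the members' median was 0.11 in place of −0.27, and Sprr1a stood at 0.42 and Rptn at −0.48. Differences of the other members ran from −0.59 ± 0.86 (Csta1) to 0.23 ± 0.50 (Sprr3), and the standard errors leave room for changes of more than 1 log2 unit in at least 1 direction. Rptn, Csta1, Dsg1a and Dsc1 were lower in the mutant in all 3 pairs by number. The numbers missed the rule set for pairing arrays by little in this region, with a lowest r of 0.095 against 0.1 across genes.

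In the proximal mandible most members were dim, and no difference passed the test. By limma 0 of 10 passed, 0 had an unadjusted p below 0.05, and 4.34% of all genes were called. Dsg1a had 7.51, 7.21 and 7.87 in mutant proximal mandible and 7.01, 6.83 and 7.31 in control proximal mandible, a difference of 0.48 ± 0.74 (adjusted p = 0.781), the farthest from 0 among the members. Krtdap had 7.86, 7.64 and 8.24 in mutants and 7.96, 7.72 and 8.85 in controls (−0.26 ± 0.77, adjusted p = 0.899). Sprr1a, Sprr3, Rptn, Csta1, Dsc1, Them5 and Sdr16c6 did not exceed the array median on any proximal mandible array of either genotype, and differences at such brightness are understated. Krtdap and Dmkn exceeded it on all 6 and Dsg1a on 5. By number, Dsg1a was higher in the mutant by 0.50, 0.39 and 0.56 and Them5 by 0.17, 0.35 and 0.22, the 2 members of one positive sign in 3 of 3 pairs, and neither passed with the number as a block within the region. Krtdap differed by −0.09, −0.08 and −0.60, and so was lower in the mutant in all 3 pairs. The median difference was 0.09, against −0.04 over all genes.

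**Figure D2:**
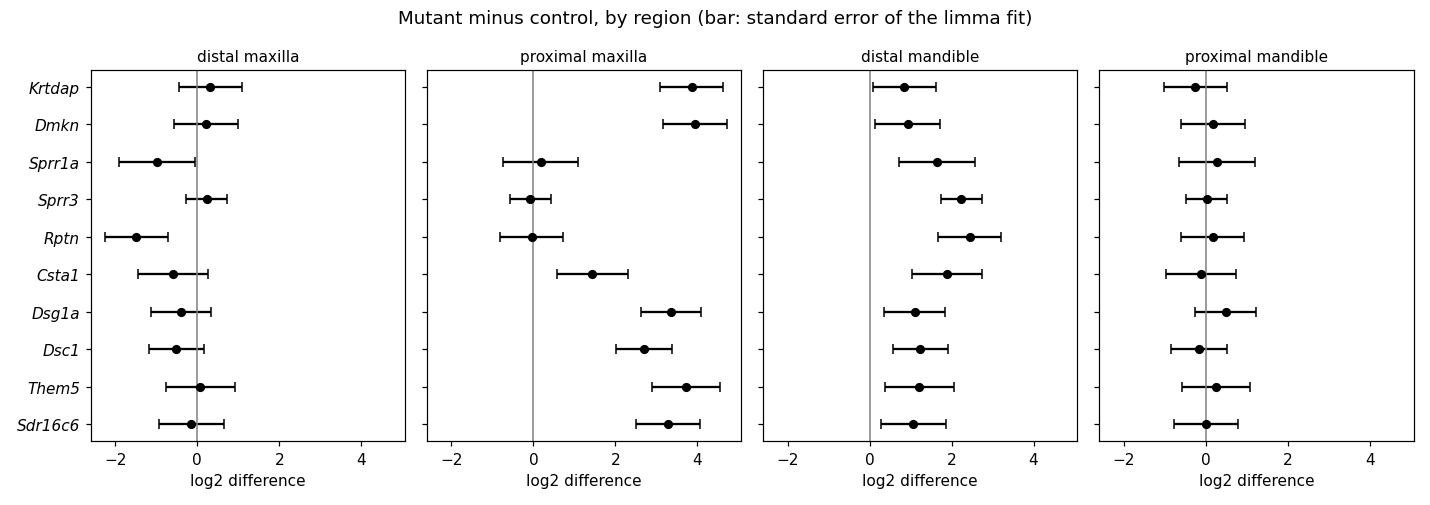
Mutant minus control log2 difference of each gene in the 4 regions, with bars for the standard error of the limma fit (n = 3 arrays per group). Krtdap, Dmkn, Dsg1a, Dsc1, Them5 and Sdr16c6 lie between 2.70 and 3.93 in the proximal maxilla while Sprr1a, Sprr3 and Rptn lie near 0, and in the distal mandible Sprr3 and Rptn lie farthest to the right at 2.24 and 2.44.

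**Figure D3:**
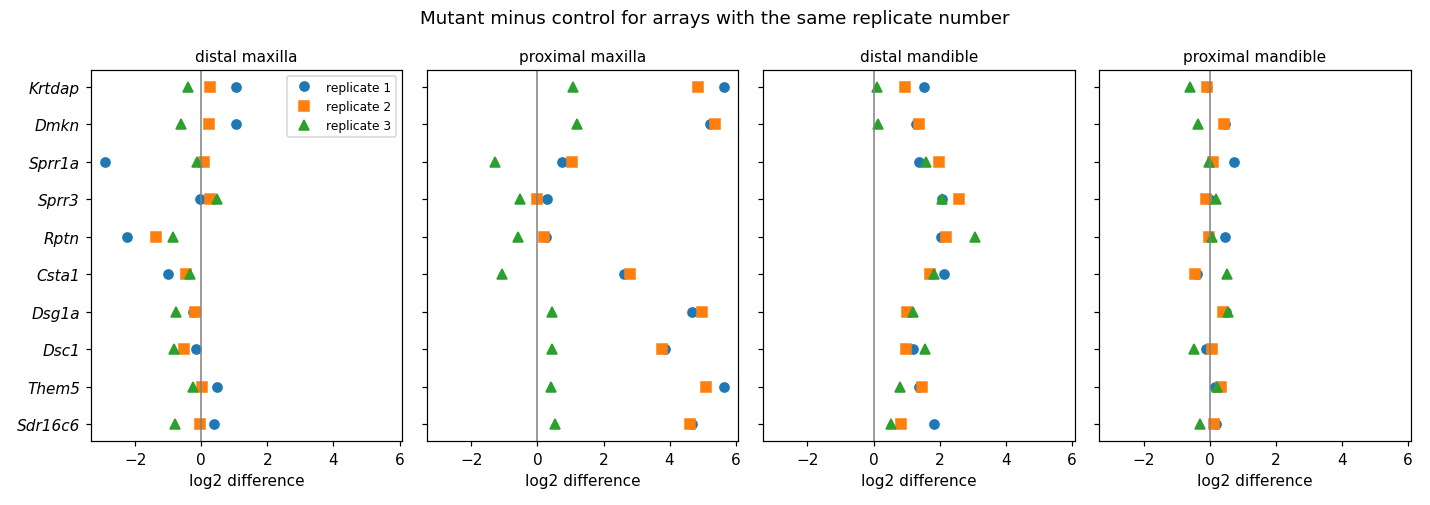
Mutant minus control log2 difference for arrays with the same replicate number, 1 point per number, in the 4 regions. In the distal mandible every point lies above 0, and in the proximal maxilla number 3 gives 1.08 for Krtdap and 0.43 for Dsg1a while numbers 1 and 2 give 4.66 to 5.65 for these genes.

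In controls the members differed along each jaw. The distal end of the maxilla had more than the proximal end for all 10 members, with a median difference of 3.32, against 0.02 over all genes. Them5 had 8.89, 10.63 and 9.52 in control distal maxilla, against 4.26, 4.28 and 8.49 in control proximal maxilla, a difference of 4.0 ± 0.83, or 16.0-fold. Dsg1a had 8.63, 10.25 and 9.17 distally, against 4.37, 4.25 and 8.08 proximally (3.78 ± 0.74). Every distal array was above every proximal array in 9 members, all but Sprr3, and 18.1% of all genes had that order. Rptn, at 6.32, 8.95 and 7.43 distally and 3.87, 3.96 and 4.75 proximally (3.37 ± 0.76), was the one among these 9 whose proximal control 3 lay nearest to controls 1 and 2. Sprr3 differed by 0.96 ± 0.50. The control proximal arrays are those of the mutant comparison from which members were named, and a low value there raises this difference too, so it is given with no test. The 9 members passed the threshold, where 8.42% of all genes did (5.09% higher distally). None passed without control distal maxilla 2 or without control proximal maxilla 1, and 4 passed without control proximal maxilla 2. Without control proximal maxilla 3, 9 passed and the median was 4.24. Basal keratinocyte genes moved the same way, with 10 of 11 higher distally (median 1.19), and with their mean as a covariate the members' median was 0.03 and none passed.

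In the control mandible the distal end was again the higher for all 10 members, with a median difference of 1.95. Them5 had 9.07, 8.02 and 9.79 in control distal mandible, against 4.68, 5.02 and 5.86 in control proximal mandible. The groups were far apart, and Them5 rose by 3.77 ± 0.83 (adjusted p = 0.0111), or 13.7-fold. It alone of the 10 passed, where 5.78% of all genes did (2.44% higher distally), 9 members had an unadjusted p below 0.05, and 9, all but Dmkn, did not overlap, where 13.5% of all genes were so ordered. Krtdap had 9.95, 9.67 and 12.03 distally, against 7.96, 7.72 and 8.85 proximally (2.38 ± 0.77, adjusted p = 0.0817, and 0.0359 with the replicate number as a block within the jaw). Sprr3 had 8.66, 6.85 and 8.74 distally, against 6.40, 6.61 and 6.36 proximally (1.63 ± 0.50, adjusted p = 0.0673). Dsg1a differed by 1.86 ± 0.74 (adjusted p = 0.173) and Rptn by 1.26 ± 0.76 (adjusted p = 0.445). The control distal mandible also served the comparison that named Sprr3, and a low value there works against a positive difference here. Them5 missed the threshold without control distal mandible 3 (adjusted p = 0.0642) or control proximal mandible 1 (adjusted p = 0.0638). Basal keratinocyte genes were higher distally here too, 9 of 11 (median 1.20), as were 9 of 19 general epithelial genes (median 1.07). With either list's mean as a covariate none of the members passed, and Them5 stood at 0.68 with the basal mean. The jaw by end interaction is built from both control groups used in naming members and is given with no test: by limma 0 of 10 members were past the threshold and 0 at an unadjusted p below 0.05, where 4.01% of all genes passed.

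Between jaws, the distal end of the control mandible had less than that of the control maxilla for 9 members, with a median difference of −1.69, against −0.01 over all genes. Sprr1a had 8.52, 6.65 and 8.59 in control distal mandible, against 10.94, 12.77 and 11.77 in control distal maxilla, a difference of −3.90 ± 0.92. Rptn had 5.69, 4.10 and 5.84, against 6.32, 8.95 and 7.43 (−2.36 ± 0.76). Dsc1 had 6.87, 5.20 and 6.6, against 7.82, 9.69 and 8.09 (−2.31 ± 0.68). Those 3 and Csta1 had every mandible array below every maxilla array, where 19.1% of all genes did. Sprr3 went the other way, at 8.66, 6.85 and 8.74 in mandible and 6.58, 8.17 and 7.17 in maxilla (0.78 ± 0.50), with groups that overlapped. Since the control distal mandible was used in naming Sprr3, these values too are given without a test. Sprr1a and Dsc1 passed the threshold, where 8.81% of all genes did (5.73% lower in the mandible). The count fell to 1 without control distal maxilla 1, control distal maxilla 2 or control distal mandible 1 and to 0 without control distal maxilla 3 or control distal mandible 2.

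At the proximal ends Sprr1a had 5.90, 5.79 and 6.10 in control mandible, against 7.48, 8.07 and 10.29 in control maxilla. The groups did not overlap. Sprr1a differed by −2.69 ± 0.92 (adjusted p = 0.0311) and alone of the 10 passed, where 33.6% of all genes did (17% lower in the mandible) and 24.8% had every mandible array below every maxilla array. With the replicate number as a block within the end its adjusted p was 0.0605, and leaving out any of the 3 control proximal mandible arrays or control proximal maxilla 3 gave 0.0600 to 0.170. General epithelial genes were lower in the mandible as well, 17 of 19 (median −1.82), and with their mean as a covariate Sprr1a turned to 0.83 and did not pass. The control proximal maxilla was used in naming members, and a low value there works against a lower mandible. Dsg1a went the other way, by 1.48 ± 0.74. A low value in control proximal maxilla raises that difference, so it is given with no test. The other members lay between −1.0 ± 0.79 (Sdr16c6) and 0.11 ± 0.50 (Sprr3). The neighbours Sprr1a and Sprr3 thus stood differently in the jaws, Sprr1a being brighter in control maxilla at either end.

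**Figure D4:**
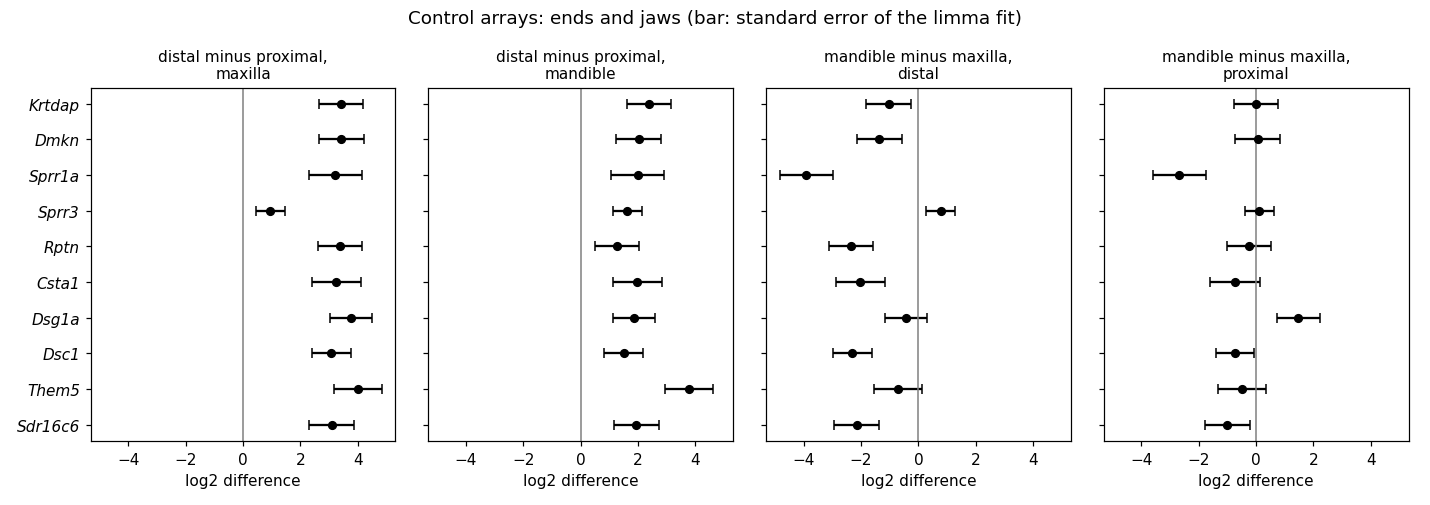
Log2 differences of the 10 genes in control arrays between ends (distal minus proximal, in maxilla and in mandible) and between jaws (mandible minus maxilla, at the distal and proximal ends), with bars for the standard error of the limma fit (n = 3 arrays per group). All points for ends lie above 0, and Sprr1a lies farthest to the left between jaws, at −3.90 distally and −2.69 proximally.

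The members varied together beyond their group means. Over 24 arrays the correlation of the 45 pairs ran from 0.36 to 0.99 with a median of 0.81, and for deviations from the group means it ran from 0.43 to 0.98 with a median of 0.82. These arrays share groups, dissection and normalization, so the values describe and test nothing. Krtdap and its neighbour Dmkn were the most alike (0.99, and 0.98 for deviations). The desmosomal genes Dsc1 and Dsg1a are also near neighbours, with 1 gene, Dsg1c, between them. Dsc1 and Sdr16c6 followed at 0.97, then Them5 with Krtdap at 0.96. Sprr3 was the least like the rest: its closest member was Rptn at 0.80, or 0.93 for deviations, its lowest pair was Sdr16c6 at 0.36, and with its neighbour Sprr1a it reached 0.43, or 0.83 for deviations.

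The members' mean followed basal keratinocyte genes over the 24 arrays (r = 0.83), general epithelial genes less closely (0.57), and nasal genes not at all (0.05). In control proximal maxilla the basal list stood at −1.61, −0.99 and −0.53 on arrays 1, 2 and 3, so that array 3, with the high members, was also the highest for basal genes. Krt5 ranged from 11.54 to 12.19 in mutant proximal maxilla and from 8.84 to 11.09 in control proximal maxilla. General epithelial genes did not move this way there: their mean was −0.30 to 0.81 in mutants and 0.71 to 0.94 in controls. With the basal mean as a covariate, the members' median between jaws was −2.52 at the distal and −1.69 at the proximal ends of controls, with 7 and 6 past the threshold, where 7.86% and 29.6% of all genes were. With the general epithelial mean instead, the medians were −1.14 and 1.22 and none passed, where 3.5% and 0.843% of all genes did. These values are a description, since both comparisons use control groups from which members were named.

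**Figure D5:**
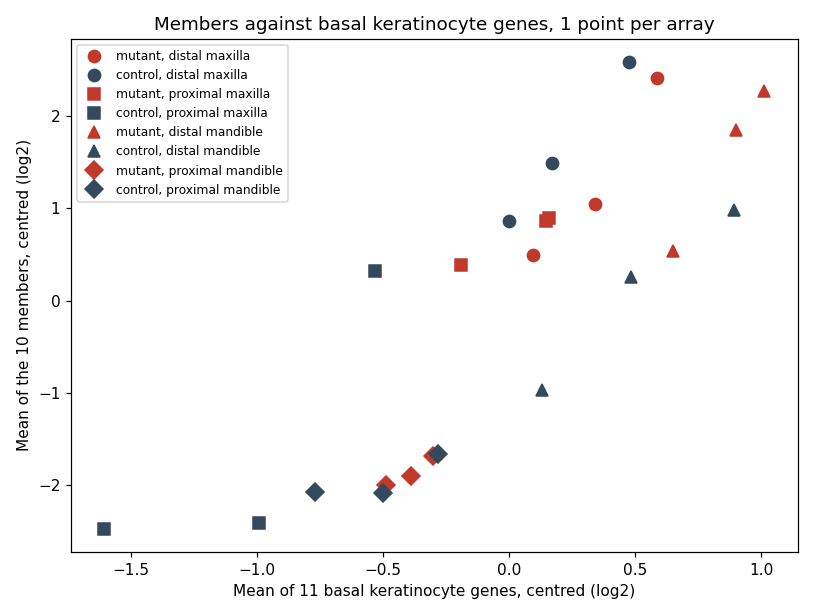
Mean of the 10 genes against the mean of 11 basal keratinocyte genes on each array, both centred over the 24 arrays (log2), with mutants in red, controls in dark blue and the marker giving the region. Control proximal maxilla 1 and 2 lie at the lower left, at −1.61 and −0.99 on the horizontal axis, and the control distal mandible arrays lie below the control distal maxilla arrays at like basal values.

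Other genes of the programme were read from lists that leave the members out and were likewise put together with earlier results known. Several of these genes varied closely with the members over the same arrays. The adjusted p-values given for them below are therefore a description, with no separate support for the members' differences. Of 61 further envelope and late keratinocyte genes, 32 were tested. Flg and Ivl, which encode filaggrin and involucrin of the upper layers, were among 16 of the 50 on the array that stayed below the median of every array, while Lor, the envelope protein loricrin, reached 11.17 in control distal maxilla. In proximal maxilla 9 of the 32 were higher in mutants and 0 lower (median 0.38), against 12.2% of all genes. Tgm1, the transglutaminase that crosslinks envelope proteins, rose by 1.60 (adjusted p = 0.0114), while Lor differed by −0.09 (adjusted p = 0.930) and Sbsn, next to Dmkn, by 0.97 (adjusted p = 0.0529). Cdsn, which encodes corneodesmosin, differed by 0.11 (adjusted p = 0.659). By limma 0 of 32 passed in distal mandible (median 0.72), distal maxilla (−0.19) and proximal mandible (0.04), with an unadjusted p below 0.05 for 4, 1 and 1 of them. Between the ends of the control maxilla 22 of 32 were higher distally (median 1.72, against 5.09% of all genes), and in the control mandible 5 were (median 0.62, against 2.44%): Calml3, Evpl, Lypd3, Ppl and Serpinb12. Evpl and Ppl encode envoplakin and periplakin, which link desmosomes to the envelope. They rose by 1.22 ± 0.30 (adjusted p = 0.0216) and 1.54 ± 0.36 (adjusted p = 0.0154) in the control distal mandible.

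Without the 3 mutant maxilla arrays low in nasal genes, 0 of the 32 passed in proximal maxilla by limma (median 0.35), and without control 3 as well 2 did, where 1.24% and 0.952% of all genes passed. With 1 mutant array left in proximal maxilla, that first fit cannot show whether calls there depend on the 3 left out. This holds for the desmosomal, basal, suprabasal keratin, general epithelial, transcription factor, barrier lipid and retinoid genes alike. With control 3 left out too, 2 of 11 desmosomal, 2 of 11 basal and 3 of 9 suprabasal keratin genes were higher.

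Of 11 further desmosomal genes tested, 6 were higher and 1 lower in mutant proximal maxilla (median 0.82), where 12.2% of all genes were higher. Dsc3, the basal desmocollin, rose by 1.88 (adjusted p = 0.000605), the plakophilin gene Pkp1 by 2.14 (adjusted p = 0.00312), the desmosomal membrane protein gene Perp by 1.55 (adjusted p = 0.00442) and Dsp, encoding desmoplakin, by 0.82 (adjusted p = 0.00858). Pkp2, a plakophilin of simple epithelia and heart, fell by 2.08 (adjusted p = 0.00714), and Jup, encoding plakoglobin, differed by 0.19 (adjusted p = 0.440). By limma 0 of 11 passed in distal mandible (median 0.54), distal maxilla (−0.02) and proximal mandible (0.25), with an unadjusted p below 0.05 for 6, 0 and 0 of them. Distally, 6 of 11 were higher in control maxilla (median 0.99) and 7 of 11 in control mandible (median 1.32), where 5.09% and 2.44% of all genes and 10 of 11 and 9 of 11 basal keratinocyte genes were.

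Keratins and basal genes were counted the same way. In mutant proximal maxilla 12.2% of all genes were higher and 23.3% were called in either direction. Of 11 basal genes, 7 were higher in mutant proximal maxilla (median 1.13), among them Krt5 by 2.24 (adjusted p = 0.00126), Krt14 by 1.64 (adjusted p = 0.00301), Trp63, the transcription factor p63 of stratified epithelium, by 1.26 (adjusted p = 0.00553) and the hemidesmosome gene Col17a1 by 1.32 (adjusted p = 0.00996). By limma 0 of 11 passed in distal mandible (median 0.50), with 1 at an unadjusted p below 0.05. Of 9 suprabasal keratins, 4 were higher in mutant proximal maxilla (median 1.12): Krt1 by 3.28 (adjusted p = 0.00577), Krt10 by 2.41 (adjusted p = 0.00838), Krt77 by 2.70 (adjusted p = 0.00295) and Krt4 by 1.24 (adjusted p = 0.0477). In mutant distal mandible only Krt6b of these passed, by 2.12 ± 0.43 (adjusted p = 0.0220), while Krt13, a keratin of the mouth lining, differed by 1.35 (adjusted p = 0.406). General epithelial genes went the other way in mutant proximal maxilla, with 1 of 19 higher (Sfn) and 8 lower (median −0.54). Epcam fell by 1.15 there (adjusted p = 0.0154) and Cdh1 differed by −0.31 (adjusted p = 0.388). Of 10 hair follicle and whisker genes, 5 were higher there (Krt25, Krt27, Krt71, Shh and Sostdc1) and 1 lower (Lhx2), with a median of 1.16. Their centred mean was 0.08 to 1.34 on the mutant and −0.69 to −0.01 on the control proximal maxilla arrays. Of 10 tooth germ genes, 4 were higher (Ambn, Dlx2, Lhx8 and Shh) and 1 lower (Sox2), with a median of 0.87.

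Among 19 keratinocyte transcription factors, 4 were higher and 1 lower in mutant proximal maxilla (median 0.39), 26.3% called against 23.3% of all genes, so the count is near that of genes at large. Klf4, known for its part in the skin barrier, rose by 0.62 (adjusted p = 0.000663), Grhl3 by 1.39 (adjusted p = 0.0460), Pou3f1 by 2.02 (adjusted p = 0.00303) and Cebpa by 0.88 (adjusted p = 0.0341), while Elf3 fell by 0.99 (adjusted p = 0.0325). Zfp750 differed by 0.68 (adjusted p = 0.0810). In mutant distal mandible 0 of 19 passed by limma (median 0.35), with 3 at an unadjusted p below 0.05. Of 12 barrier lipid genes 1, Cyp4f39, was higher in mutant proximal maxilla, by 1.10 (adjusted p = 0.0251), with a list median of 0.13. That count is not above the 12.2% of all genes that were higher. Of 18 further retinoid genes, 2 were higher there (Rbp4 and Rdh12) and 4 lower (Aldh1a1, Aldh1a3, Crabp2 and Stra6), with a median of −0.05, also near the share of all genes in the number higher (11.1% against 12.2%) and not far above it in all calls (33.3% against 23.3%). Crabp2, a retinoic acid binding protein gene, fell by 0.50 (adjusted p = 0.0199).

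The genes whose pattern was most like the members' centred mean over 24 arrays were Lypd3 (r = 0.98), Perp (0.97), S100a14, Evpl, Krt1, Tgm1, Scel, Asprv1, Ppl and Sytl1 (0.95). Over the 12 control arrays alone Lypd3 led again (0.99), followed by Krt1, Ly6d, Serpinb3a, Krt10, Psapl1, Dynap, Foxq1, Asprv1 and Ly6g6e. Over the 12 mutant arrays Tmem79 (0.99), Ppl, S100a14, Zfp750, Lypd3, Ptpn13, Grhl3, Perp, Evpl and Crybg2 were nearest. Lypd3, the nearest over all arrays, was 2.32 ± 0.54 higher in mutant proximal maxilla and 0.98 ± 0.54 higher in mutant distal mandible.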

How the data were processed

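RNA of 24 jaw pieces was hybridised to Affymetrix arrays. The authors deposited 1 log2 value per probe set and array (45101 probe sets). The submitters' processing notes name RMA and Partek 6.6, with no settings given in the sources used here. Quantile-based summaries of this kind assume that most genes do not change, and dim genes are compressed towards background. Probe sets with 1 symbol in the platform annotation covered 18193 genes, each gene being read from its probe set of highest mean. Genes above their array's median on at least 3 of 24 arrays (12811) were tested with limma 3.58.1 in R 4.3.3 (lmFit, eBayes, two-sided, 8 groups in 1 fit, 9 contrasts, Benjamini-Hochberg over all genes tested, threshold 0.05), and the code was tested on simulated data. Columns of no listed sample numbered 0. No label says if the 3 arrays of a group come from different embryos or from pools, so that a p-value reflects no more than the spread of these arrays, possibly technical, and the number of arrays limits precision.

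The members and all 17 gene lists were chosen with earlier results of these data known. Every member is named. Of the other lists some fixed genes and some that passed are named, and not every list is given in every comparison. Likeness was Pearson's correlation with the members' centred mean. Replicate numbers were taken to pair arrays where all 3 same-numbered pairs deviated together from their group means (r over 0.1 across genes). This held for mutant and control distal mandible (0.15 to 0.51) and proximal mandible (0.30 to 0.32), for the ends of the control maxilla (0.11 to 0.50) and mandible (0.46 to 0.54) and for control proximal jaws (0.20 to 0.36). It did not hold for mutant and control distal maxilla (lowest 0.095) or proximal maxilla (lowest −0.01), nor for control distal jaws (lowest 0.025). Alternatives covered normalization, filter, probe set choice, arrays in the fit, weights, blocks and list means as covariates. Leaving out control proximal maxilla 3 together with the 3 mutant maxilla arrays low in nasal genes, the block within the compared groups, and gene list counts without those arrays were added after seeing the data.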

Additional observations from a re-analysis of the deposited data

How the results depend on the processing

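Counts below are members of the 10 past the threshold in either direction. The main counts were 0, 6, 1 and 0 for mutant against control in distal maxilla, proximal maxilla, distal mandible and proximal mandible, 2 and 1 for control mandible against maxilla (distal, proximal), 9 and 1 for control distal against proximal end (maxilla, mandible) and 0 for the interaction. Quantile normalization, median centring, no filter, a stricter filter, the probe set with the highest variance and a variance prior with trend moved none of them by more than 1.5 times. When the fit held no arrays but those compared, counts were 0 for mutant proximal maxilla and distal mandible, 0 for the ends of the maxilla, 1 for distal jaws and 2 for the ends of the mandible. Array weights gave 2 for mutant distal mandible, 6 for distal jaws and 2 for the ends of the mandible, and the mean of all probe sets 1 for distal jaws. The basal mean as a covariate gave 0 for mutant proximal maxilla, mutant distal mandible and the ends of either jaw, 7 for distal jaws and 6 for proximal jaws. It turned the control maxilla ends to −0.041 for Krtdap, −0.53 for Sprr1a, −0.63 for Csta1 and −0.62 for Sdr16c6, and Krtdap between proximal jaws to −1.44. The general epithelial mean as a covariate gave 0 for distal jaws, proximal jaws and the mandible ends, and turned Sprr1a between proximal jaws to 0.83. Nasal and muscle means gave 0 for mutant proximal maxilla, mutant distal mandible, distal jaws and proximal jaws, 4 for the maxilla ends and 2 for the mandible ends. Where a covariate differs between the groups compared, it removes part of their difference by construction. Without the 3 mutant maxilla arrays low in nasal genes, mutant proximal maxilla had 0 and the mandible ends 2. Leaving out control proximal maxilla 3 as well gave 4 for distal jaws, 2 for proximal jaws, 4 for the mandible ends and 1 for the interaction. The replicate block over all arrays gave 2 for the mandible ends. The block within the compared groups gave 2 for mutant distal mandible, 1 for distal jaws, 0 for proximal jaws and 2 for the mandible ends, and changed no other count by more than 1.5 times. Leaving out single replicates gave 0 to 0 for mutant distal maxilla, 6 to 7 for proximal maxilla, 0 to 1 for distal mandible, 0 to 0 for proximal mandible, 0 to 2 for distal and 0 to 1 for proximal jaws, 0 to 9 and 0 to 2 for the maxilla and mandible ends, and 0 to 1 for the interaction. The cause of these changes was not tested.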
